A study of Mus musculus with 2 samples.

Results

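A set of 10 genes of the neuronal cytoskeleton were followed across cell classes of the embryonic mouse brain, out of 32285 genes in the deposited matrices. They were chosen by name, with earlier results of these data known. Among them are 3 tubulin genes (Tuba1a, Tubb2b and Tubb3), and the others are Dcx, Dclk1, Pafah1b1, Map2, Mapt, Stmn2 and Flna. All 10 were found in the gene list of both libraries. The series was built around loss of the histone methyltransferase gene Dot1l under Emx1-Cre, but the samples used here were 2 wild-type (WT) libraries alone, WT replicate 1 and WT replicate 6, with no other allele or agent named in their labels, and the knockout was not analysed here. Cells came from the dorsal telencephalon at embryonic day 16.5, and the labels name the tissue as brain hemispheres. The labels do not say whether the libraries came from separate embryos, so p-values measure the spread between these 2 libraries, which may be technical.

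Microtubules are hollow polymers of alpha- and beta-tubulin pairs, and a migrating neuron uses them to build a leading process and to pull its nucleus forward through dynein, a motor regulated by the LIS1 protein. Doublecortin, tau and MAP2 bind and stabilise microtubules, stathmins bind free tubulin, and filamin A cross-links actin beneath the membrane. Mutations in the human counterparts of TUBA1A, TUBB2B, TUBB3, DCX, PAFAH1B1 and FLNA cause lissencephaly, polymicrogyria, band or nodular heterotopia and related cortical malformations.

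The deposited matrices held 14136 and 13046 cells with 74930397 and 68964234 unique molecular identifiers (UMIs), 1 per captured mRNA molecule. After filters on UMIs and mitochondrial content and removal of likely doublets, 7219 and 7352 cells were used, and 19 cell barcodes occurred in both sets. Each cell was assigned by marker genes, none of them among the 10, and 8763 of 14571 cells (60.1%) received 1 of 18 classes. Comparisons were made among 10 of them, which are radial glial cell (RGC)-like, intermediate progenitor cell (IPC)-like, newborn excitatory neuron-like, upper-layer-like, layer 5-like, layer 6-like, ganglionic eminence (GE) progenitor-like, medial and caudal GE (MGE and CGE) interneuron-like and striatal neuron-like, and the suffix is left out below. The other assigned cells were dorsal lateral GE-, Cajal-Retzius-, oligodendrocyte precursor-, microglia-, endothelial-, mural-, fibroblast- and erythroid-like. Both libraries together gave 771 RGCs, 558 IPCs, 1145 newborn, 1391 upper-layer, 215 layer 5 and 287 layer 6 neurons, 423 GE progenitors, 1140 MGE and 276 CGE interneurons and 486 striatal neurons. Of the 14571 cells, assigned or not, 2085 lay within 0.1 of the gate, so the classes have soft borders. Median depth was 8587 UMIs in RGCs, 8866 in IPCs, 7922 in newborn neurons and 9093 in upper-layer neurons, but 3505 in MGE and 3709 in CGE interneurons.

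Levels are given as CPM, the UMIs of a gene scaled to counts per 1000000 UMIs of the class in 1 library. Fold changes and p-values come from edgeR's quasi-likelihood test on the summed UMIs, with Benjamini-Hochberg adjustment over all genes tested, 2 sums per class and a threshold of 0.05. A log2 difference below is the value of this fit with a standard error (SE). The SE was derived as the size of the log2 difference divided by the square root of the test's F statistic. In RefSeq annotation of build GRCm38.p6, Dcx lies at chrX:143855842-143933396, Flna at chrX:74223461-74249854, Dclk1 at chr3:55242303-55539068, Stmn2 at chr3:8509527-8561604, Pafah1b1 at chr11:74673949-74724384 and Mapt at chr11:104229409-104332090. Tuba1a lies at chr15:98949847-98953501, Tubb2b at chr13:34127008-34130354, Tubb3 at chr8:123411553-123422015 and Map2 at chr1:66175202-66442583. Each gene was compared only with itself, since gene length differs widely among them. Dclk1 spans 296766 bases and Map2 267382 bases, but Tuba1a only 3655 bases, and whether intronic reads were counted is not given in the sources used here.

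**Figure D1:**
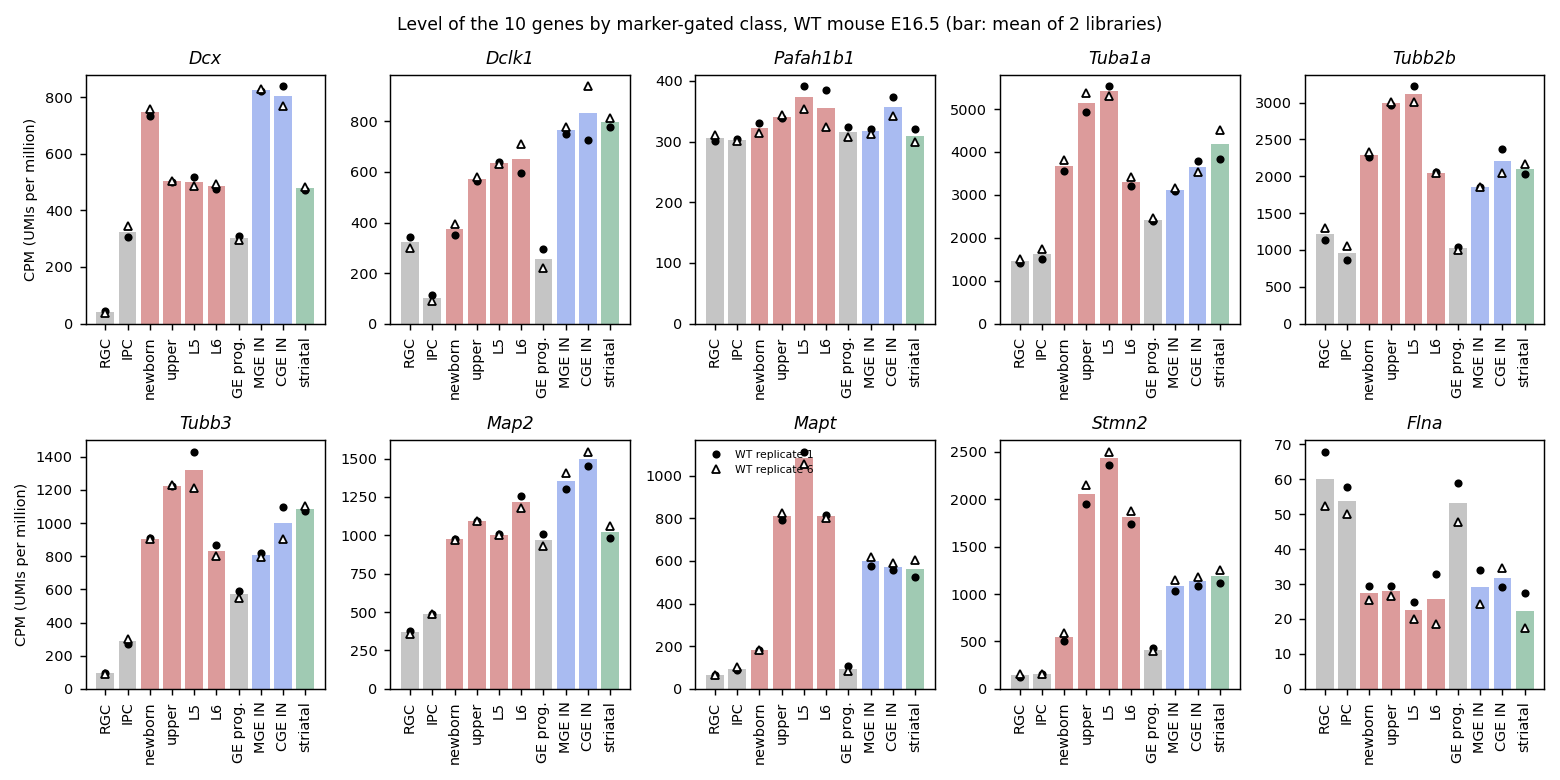
Level of each of the 10 genes (y axis, CPM) in 10 marker-gated classes (x axis; IN, interneuron; prog., progenitor), with bars at the mean of both libraries, circles for WT replicate 1 and triangles for WT replicate 6. Dcx was highest in newborn neurons and interneurons (733 to 837 CPM), Mapt and Stmn2 were highest in layer 5 neurons, and Flna was highest in RGCs, overlapping with IPCs.

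The excitatory lineage was examined first, from RGC to IPC to newborn neuron to upper-layer neuron. Between RGCs and IPCs, 4 of the 10 genes were higher in IPCs (Dcx, Tubb3, Mapt and Map2) and Dclk1 was lower, where 17.6% of 12320 genes tested were higher and 21.8% lower. Between IPCs and newborn neurons 8 rose and Flna fell, against 21.8% of 12053 genes higher and 22.5% lower. The median log2 difference of the 10 genes at this step was 1.27, and that of all genes tested was 0.00. Between newborn and upper-layer neurons 7 were higher and Dcx was lower, against 20.2% and 18.9% of 12898 genes. Pafah1b1 alone passed the test in none of these 3 comparisons.

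**Figure D2:**
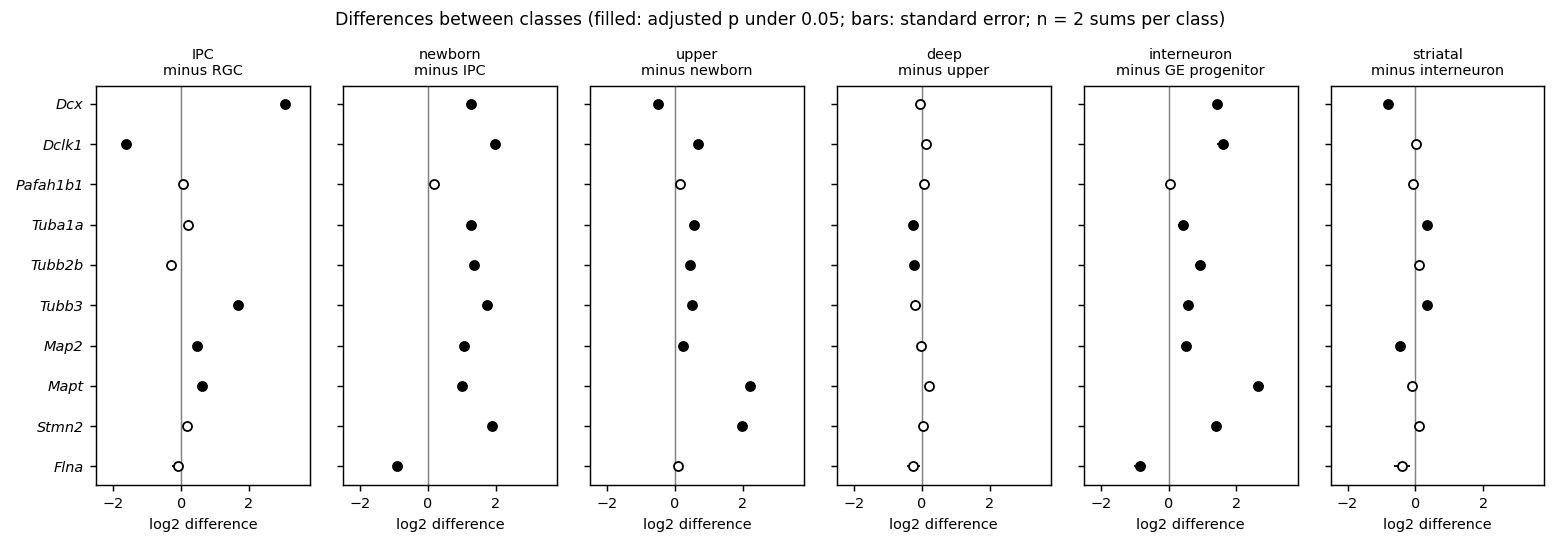
Log2 difference (x axis) of each gene (y axis) in 6 comparisons between classes, with bars for the SE, mostly hidden by the points, and filled points at an adjusted p under 0.05 (edgeR, n = 2 sums per class). The 8 genes that rose lie to the right of 0 and Flna to the left for newborn neurons minus IPCs, and Mapt and Stmn2 lie farthest to the right for upper-layer minus newborn neurons.

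Tuba1a, the main alpha-tubulin of postmitotic neurons, stood at 1419 CPM in WT replicate 1 and 1501 CPM in WT replicate 6 in RGCs, and at 1502 and 1728 CPM in IPCs. In newborn neurons it reached 3562 and 3804 CPM, in upper-layer neurons 4933 and 5366 CPM and in layer 5 neurons 5529 and 5302 CPM. Progenitors and neurons did not overlap. The rise from IPC to newborn neuron was 2.41-fold (log2 difference 1.27, SE 0.09, adjusted p = 1.4e-06), and upper-layer neurons stood a further 1.47-fold higher (adjusted p = 2e-05). The difference of IPCs from RGCs was 0.20 (SE 0.10, adjusted p = 0.15). The fit with the library as a block gave it an adjusted p of 0.000444.

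Tubb2b, a beta-tubulin of progenitors and migrating neurons, was at 1131 and 1295 CPM in RGCs, 861 and 1051 CPM in IPCs, 2254 and 2332 CPM in newborn neurons and 2969 and 3004 CPM in upper-layer neurons. IPCs were the lowest of these classes in each library. The step from IPC to newborn neuron was a 2.53-fold rise (log2 difference 1.34, SE 0.10, adjusted p = 2.4e-06) and the next a 1.37-fold rise (adjusted p = 7.3e-05). The call for the latter was lost when all gated classes shared 1 fit (adjusted p = 0.102). The value in IPCs against RGCs was a log2 difference of -0.29 (SE 0.12, adjusted p = 0.079), and a library block brought the adjusted p to 2.98e-06.

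Tubb3, the beta-tubulin III isotype widely used as a label of young neurons, rose at every step. It was at 93.7 and 92.3 CPM in RGCs, 272 and 302 CPM in IPCs, 907 and 901 CPM in newborn neurons and 1220 and 1230 CPM in upper-layer neurons. IPCs were 3.21-fold above RGCs (log2 difference 1.68, SE 0.10, adjusted p = 6.4e-07). Newborn neurons were 3.32-fold above IPCs (adjusted p = 2.4e-07), and the last step was 1.42-fold (adjusted p = 9.3e-05). That last call was lost when all gated classes shared 1 fit (adjusted p = 0.094). No pair of neighbours in this order overlapped between libraries.

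The make-up of the tubulin pool shifted along the same order. Tuba1a held 77.6% and 75.7% of alpha-tubulin UMIs in RGCs, 82.5% and 85.2% in IPCs and 96.8% and 97.0% in newborn neurons. Almost all of the rest was Tuba1b, an isotype of dividing cells, with 20.4% and 22.4% in RGCs and 2.9% and 2.7% in newborn neurons. Tuba1b fell between IPCs and newborn neurons (log2 difference -1.38, SE 0.08, edgeR adjusted p = 6.6e-07) while Tuba1a rose. Among IPCs the share of Tuba1b was 20.5% and 18.4% in the 356 cells counted as cycling and 4.5% and 3.2% in the others. For beta-tubulins the share of Tubb3 went from 3.6% and 3.2% in RGCs to 17.8% and 17.4% in newborn neurons, and that of Tubb4b from 10.6% and 10.1% to 1.1% and 1.2%. Tubb5 took 34.0% and 33.3% in RGCs, 46.9% and 45.1% in IPCs and 33.5% and 32.9% in newborn neurons. These shares are descriptions with no test. Tuba1a and Tuba1b, and Tubb2a and Tubb2b, are near-identical in coding sequence, so reads that could come from either member of a pair make their counts uncertain.

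**Figure D3:**
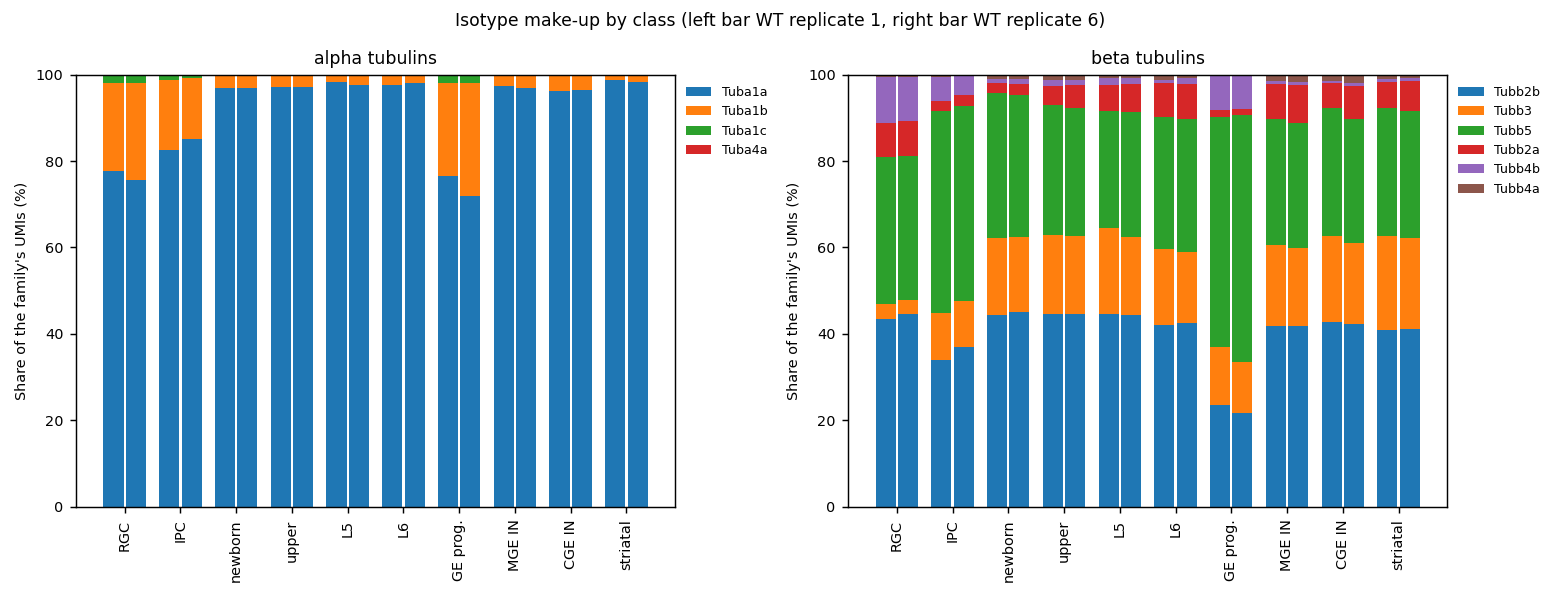
Share of each isotype (y axis, percent of the family's UMIs) among alpha-tubulins (left) and beta-tubulins (right) by class (x axis), with the left bar of each pair for WT replicate 1 and the right for WT replicate 6. Tuba1b takes 14.1% to 26.3% in RGCs, IPCs and GE progenitors and at most 3.8% in the neuron classes.

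Of the 10 genes, 7 matched an entry in the RefSeq promoter table (build GRCm38.p6). The 250 bases before the start are shown for Tuba1a and Tubb3, whose windows lie wholly outside the gene's own RefSeq record. Both genes rose from IPCs to newborn neurons, but only Tubb3 passed the test between RGCs and IPCs. Capitals mark matches on either strand to the TATA core TATAA and to the GC box GGGCGG. The sequences lie at chr15:98953502-98953751 on the minus strand and chr8:123411303-123411552 on the plus strand.
Tuba1a: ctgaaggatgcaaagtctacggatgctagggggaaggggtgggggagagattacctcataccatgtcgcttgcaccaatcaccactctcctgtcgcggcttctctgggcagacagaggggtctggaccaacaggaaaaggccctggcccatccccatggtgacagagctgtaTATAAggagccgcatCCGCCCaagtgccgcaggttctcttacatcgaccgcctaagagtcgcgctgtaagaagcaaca
Tubb3: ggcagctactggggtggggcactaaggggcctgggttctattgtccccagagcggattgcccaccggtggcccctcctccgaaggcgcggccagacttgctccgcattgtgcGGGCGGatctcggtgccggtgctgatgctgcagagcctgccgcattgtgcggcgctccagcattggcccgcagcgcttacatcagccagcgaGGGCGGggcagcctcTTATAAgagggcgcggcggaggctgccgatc
Tuba1a had 1 TATA core 78 bases before the start and 1 GC box 63 bases before it. Tubb3 had a pair of overlapping TATA matches on opposite strands, 31 and 30 bases before the start, and GC boxes at 138 and 46 bases. Of 27025 mouse promoter windows of this length, 23.5% held a TATA core and 33.0% a GC box. The E-box CANNTG, which reads the same on both strands, occurred once in Tuba1a, not in Tubb3, and in 66.1% of all windows. These matches are letters in a window and not measured sites.

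Dcx, which encodes the microtubule-binding protein doublecortin, had a different course from the tubulins. It was at 42.9 and 37.4 CPM in RGCs, 306 and 343 CPM in IPCs, 733 and 759 CPM in newborn neurons and 500 and 505 CPM in upper-layer neurons. The level was thus highest in newborn neurons within this lineage and lower on both sides. IPCs exceeded RGCs 8.38-fold (log2 difference 3.07, SE 0.12, adjusted p = 4e-08), the highest log2 difference of the 10 genes at this step. Newborn neurons exceeded IPCs 2.43-fold (adjusted p = 1.8e-06), and upper-layer neurons were 1.42-fold below newborn neurons (log2 difference -0.50, SE 0.07, adjusted p = 0.00018). The last of these differences missed the threshold when all gated classes shared 1 fit (adjusted p = 0.0569). Among cells counted as cycling Dcx was at 38.3 and 37.6 CPM in RGCs and at 289 and 286 CPM in IPCs.

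Dclk1, a doublecortin-like kinase, dipped in IPCs. RGCs had 344 and 301 CPM, IPCs 111 and 89.3 CPM, newborn neurons 352 and 395 CPM and upper-layer neurons 564 and 581 CPM. The IPC level was the lowest of the 10 classes in both libraries. It fell 3.09-fold from RGC to IPC (log2 difference -1.63, SE 0.13, adjusted p = 5.9e-06) and rose 3.92-fold from IPC to newborn neuron (log2 difference 1.97, SE 0.12, adjusted p = 6.2e-07). Upper-layer neurons were 1.61-fold above newborn neurons (adjusted p = 5.2e-05), so Dcx and Dclk1 passed the test in opposite directions both at the first and at the last of these steps.

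Pafah1b1, which encodes LIS1, had nearly the same level in the 10 classes compared. The class means ran from 303 CPM in IPCs to 373 CPM in layer 5 neurons, a ratio of 1.23. RGCs had 301 and 311 CPM, newborn neurons 331 and 314 CPM and MGE interneurons 321 and 313 CPM. It passed the test in none of the 7 comparisons, and the SE of its log2 difference was between 0.07 and 0.13. With the library as a block, differences of 0.17 between newborn neurons and IPCs (adjusted p = 0.0378) and 0.15 between upper-layer and newborn neurons (adjusted p = 0.0054) passed.

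Map2, a microtubule-associated protein of dendrites, was at 377 and 360 CPM in RGCs, 485 and 490 CPM in IPCs, 976 and 970 CPM in newborn neurons and 1094 and 1091 CPM in upper-layer neurons. Newborn neurons were 2.11-fold above IPCs (adjusted p = 3.3e-06). The first and last steps were smaller, with log2 differences of 0.46 (SE 0.10, adjusted p = 0.0048) and 0.24 (SE 0.06, adjusted p = 0.012). When all gated classes shared 1 fit, neither passed (adjusted p = 0.128 and 0.446). The last step also missed the threshold with DESeq2 (adjusted p = 0.0975), without TMM scaling (0.0661) and in cells thinned to 2000 UMIs (0.108).

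Mapt encodes tau, a microtubule-associated protein of axons, and its main rise came later than that of Map2. It was at 62.8 and 65.9 CPM in RGCs, 89.2 and 101 CPM in IPCs and 183 and 182 CPM in newborn neurons. Upper-layer neurons had 794 and 824 CPM and layer 5 neurons 1113 and 1054 CPM. The step from newborn to upper-layer neuron was 4.65-fold (log2 difference 2.22, SE 0.07, adjusted p = 5.1e-09), and the step from IPC to newborn neuron was 2.02-fold (adjusted p = 7.4e-06). IPCs were 1.54-fold above RGCs (SE 0.11 on the log2 scale, adjusted p = 0.0014). That call was lost when likely doublets were kept (log2 difference 0.18, adjusted p = 0.184) or cells were thinned to 2000 UMIs (0.444, adjusted p = 0.135).

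Stmn2, which encodes the growth-cone stathmin SCG10, rose by similar amounts at the last pair of steps. Its level was 128 and 156 CPM in RGCs, 158 and 152 CPM in IPCs, 504 and 589 CPM in newborn neurons and 1951 and 2150 CPM in upper-layer neurons. RGCs and IPCs overlapped with each other and lay below all neurons. Newborn neurons were 3.72-fold above IPCs (log2 difference 1.89, SE 0.10, adjusted p = 2.9e-07), and upper-layer neurons 3.93-fold above newborn neurons (log2 difference 1.97, SE 0.08, adjusted p = 3e-08).

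Flna, the actin cross-linker filamin A, was the one gene that fell as neurons formed. RGCs had 67.9 and 52.4 CPM, IPCs 57.7 and 49.9 CPM, newborn neurons 29.4 and 25.3 CPM and upper-layer neurons 29.4 and 26.6 CPM. Progenitor and neuron values did not overlap in this lineage. The fall from IPC to newborn neuron was 1.87-fold (log2 difference -0.90, SE 0.15, adjusted p = 0.0006). Counts were low, with 128 and 126 UMIs in newborn neurons. Outside the neural classes Flna was at 275 and 227 CPM in mural cells and 115 and 92.5 CPM in fibroblasts, above every neural class.

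Layer 5 and layer 6 neurons were summed as deep-layer neurons and compared with upper-layer neurons. Tuba1a (log2 difference -0.25, SE 0.06, adjusted p = 0.019) and Tubb2b (-0.23, SE 0.07, adjusted p = 0.04) were lower in deep layers and none of the 10 was higher, where 13.0% of 12583 genes were higher and 8.5% lower. In WT replicate 1 alone both were at -0.14, and WT replicate 6 alone gave -0.30 and -0.25. The 2 deep classes differed in level. Tuba1a was at 5529 and 5302 CPM in layer 5 neurons but 3209 and 3407 CPM in layer 6 neurons, and Tubb3 at 1430 and 1213 CPM against 869 and 799 CPM. Layer 5 values overlapped those of upper-layer neurons for Tuba1a, Tubb2b and Tubb3, and layer 6 values lay below both. Layer 6 neurons had a median of 5441 UMIs per cell and layer 5 neurons 10378, and after thinning to 2000 UMIs the deep-layer differences were -0.432 for Tuba1a and -0.362 for Tubb2b (adjusted p = 0.000583 and 0.00718). With the library as a block Tubb3 (-0.20, adjusted p = 0.00534) and Mapt (0.20, adjusted p = 0.00525) passed too. With DESeq2, with all gated classes in 1 fit and with stricter cell filters none of the 10 passed. The share of all genes passing was not compared under these settings.

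The ventral lineage offers a step from GE progenitors to cortical interneurons, which are born in the ganglionic eminences and migrate tangentially into the cortex. It is not matched to the excitatory step. The GE progenitor markers were not limited to 1 eminence, and the interneuron markers were not limited to newborn cells. MGE and CGE interneurons were summed. Of the 10 genes, 8 were higher in interneurons and Flna was lower, where 28.3% of 12024 genes were higher and 27.5% lower. Mapt had the highest difference, from 106 and 83.3 CPM in GE progenitors to 573 and 614 CPM in interneurons (6.26-fold, log2 difference 2.65, SE 0.16, adjusted p = 3.8e-07). Dclk1 rose 3.02-fold (adjusted p = 2.3e-05), Dcx 2.70-fold (adjusted p = 1.1e-05), Stmn2 2.65-fold (adjusted p = 1.8e-05) and Tubb2b 1.88-fold (adjusted p = 0.00032). Flna went from 58.8 and 47.8 CPM to 33.0 and 26.5 CPM (log2 difference -0.84, SE 0.18, adjusted p = 0.0028). Of the 423 GE progenitors 408 were counted as cycling, since Mki67 and Top2a were among their gate markers, so cycling and class cannot be told apart here.

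Some tubulin differences in the ventral lineage were smaller. Tuba1a was at 2392 and 2456 CPM in GE progenitors and 3239 and 3229 CPM in interneurons (log2 difference 0.41, SE 0.14, adjusted p = 0.026), and the call was lost with the library as a block (adjusted p = 0.0731). Tubb3 was at 591 and 549 CPM and at 881 and 815 CPM (log2 difference 0.57, SE 0.14, adjusted p = 0.0055), and Map2 differed by 0.51 (SE 0.14, adjusted p = 0.01). In cells thinned to 2000 UMIs Tuba1a (adjusted p = 0.093), Tubb3 (0.0506) and Flna (0.0761) did not pass.

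Whether the steps of both lineages differed was tested as the interaction, in a comparison added after the values had been seen. The interneuron gates did not select newborn cells, so lineage and maturity of the neurons cannot be told apart in it. The rise was smaller in the ventral lineage for Tubb3 (log2 difference of the steps -1.10, SE 0.16, adjusted p = 0.00021), Tuba1a (-0.79, SE 0.15, adjusted p = 0.0015) and Map2 (-0.50, SE 0.15, adjusted p = 0.028). The call for Map2 was lost with stricter cell filters (-0.372, adjusted p = 0.137) and in cells thinned to 2000 UMIs (-0.433, adjusted p = 0.149). The rise was larger for Mapt (1.69, SE 0.18, adjusted p = 1.3e-05). Both progenitor levels of Mapt lay below the level in erythroid cells, which is given further below as background. Of 12750 genes tested, 10.5% were higher in this interaction and 10.9% lower. GE progenitors already stood above IPCs in Tubb3 (591 and 549 against 272 and 302 CPM) and Map2 (1009 and 929 against 485 and 490 CPM). Stmn2 had a difference of -0.43 (SE 0.17, adjusted p = 0.085), with an adjusted p of 0.0334 with the library as a block. The step of Dcx differed by 0.21 (SE 0.15, adjusted p = 0.36).

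**Figure D4:**
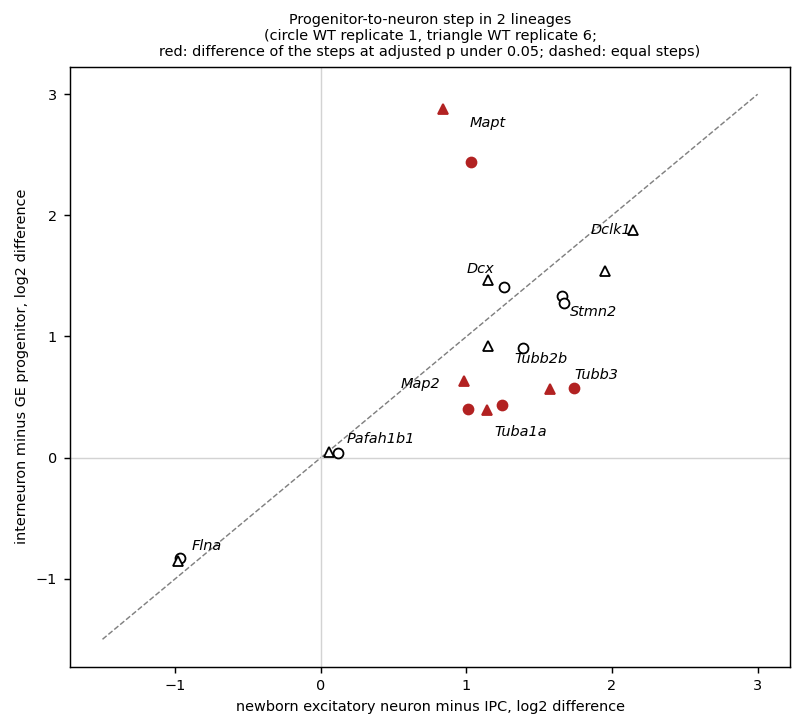
Log2 difference of each gene from GE progenitor to interneuron (y axis) against that from IPC to newborn excitatory neuron (x axis), 1 circle for WT replicate 1 and 1 triangle for WT replicate 6, with the dashed line at equal steps. Mapt lies above the line, and Tubb3, Tuba1a and Map2 lie below it in both libraries.

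Interneurons and newborn excitatory neurons, which migrate tangentially and radially, were then compared directly. Here too lineage and maturity cannot be told apart. Mapt (3.23-fold, adjusted p = 2.6e-07), Dclk1 (2.07-fold, adjusted p = 1.3e-05), Stmn2 (1.99-fold, adjusted p = 2.8e-05) and Map2 (1.41-fold, adjusted p = 0.001) were higher in interneurons. Tubb2b was lower (log2 difference -0.26, SE 0.08, adjusted p = 0.026), and 22.6% of 12625 genes were higher and 21.1% lower. Dcx was at 825 and 817 CPM in interneurons and 733 and 759 CPM in newborn neurons, and the test gave 0.13 on the log2 scale (SE 0.08, adjusted p = 0.25). Tuba1a was at -0.20 (SE 0.08, adjusted p = 0.067), and at an adjusted p of 0.0344 with the library as a block. Median UMIs per cell were 3505 and 3709 in the interneuron classes and 7922 in newborn neurons, and the level of Malat1, a nuclear RNA, was 21599 CPM in MGE interneurons and 15481 CPM in newborn neurons. In thinned cells the differences of the 4 genes higher in interneurons were 1.64 for Mapt, 1.14 for Dclk1, 0.877 for Stmn2 and 0.547 for Map2, each past the threshold, and the part of Malat1 was not tested. With cells of 3000 to 30000 UMIs and under 5% mitochondrial UMIs the Tubb2b difference was 0.022. The Tubb2b call was also lost with DESeq2 (adjusted p = 0.12) and with all gated classes in 1 fit (0.374). It was lost too with likely doublets kept (0.0703) and with a raised gate (0.0517). Map2 missed the threshold when all gated classes shared 1 fit (adjusted p = 0.0567).

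Striatal neurons, which settle ventrally, were compared with interneurons. Dcx was lower, at 473 and 482 CPM (log2 difference -0.80, SE 0.11, adjusted p = 0.00014), and so was Map2, at 983 and 1061 CPM against 1336 and 1437 CPM (-0.46, SE 0.11, adjusted p = 0.0075). Tuba1a (0.35, SE 0.10, adjusted p = 0.025) and Tubb3 (0.34, SE 0.11, adjusted p = 0.038) were higher, where 10.7% of 11416 genes were higher and 11.8% lower. Both tubulin calls were lost with DESeq2 (adjusted p = 0.0713 and 0.0888) and with stricter cell filters (0.218 and 0.291). Dclk1 had 779 and 814 CPM in striatal neurons and 746 and 811 CPM in interneurons, which overlapped.

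Across the 10 classes each gene had its own order of levels. MGE and CGE interneurons overlapped at the top for Dcx, followed by newborn neurons, and the ratio of the highest to the lowest class mean was 20.5. That ratio was 17.1 for Stmn2, 16.8 for Mapt, 14.2 for Tubb3 and 8.29 for Dclk1. It was 4.07 for Map2, 3.71 for Tuba1a, 3.25 for Tubb2b, 2.70 for Flna and 1.23 for Pafah1b1. Layer 5 neurons had the highest mean for Tuba1a, Tubb2b, Tubb3, Mapt, Stmn2 and Pafah1b1. Upper-layer neurons overlapped them for the 3 tubulins, and CGE interneurons and layer 6 neurons overlapped them for Pafah1b1. CGE interneurons were highest for Map2 and Dclk1, the latter overlapping with striatal neurons.

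Detection in single cells was compared after each cell had been thinned to 2000 UMIs, with erythroid cells, which make haemoglobin and should lack neuronal transcripts, as background. A UMI of Dcx was found in 7.5% of RGCs, 43.0% of IPCs, 75.3% of newborn neurons and 79.0% of MGE interneurons, beside 18.0% of erythroid cells. Without thinning the shares were 25.4%, 79.7%, 97.2%, 87.4% and 26.0%. The RGC share is read as background, and the others exceed that level. Tubb3 was found in 20.2% of RGCs, 42.7% of IPCs, 83.7% of newborn neurons and 35.7% of erythroid cells, so its RGC share too is at background. The IPC share lay close to the erythroid one, which differed between the libraries (42.1% and 29.2%). Other non-neural classes had Tubb3 in 12.9% (fibroblast), 21.6% (endothelial), 22.7% (mural) and 35.2% (microglia) of cells, each below the IPC share. Summed over cells, erythroid cells had 312 and 248 CPM of Tubb3, which overlapped the 272 and 302 CPM of IPCs. The Tubb3 levels of RGCs and IPCs thus lay below or within the erythroid range. Erythroid cells were shallower (median 3219 UMIs, against 8587 in RGCs and 8866 in IPCs), so theirs is not a measured floor for those classes. What part of the fold is background was not tested. For Dcx erythroid cells had 156 and 130 CPM, above RGCs and below IPCs, and for Dclk1 128 and 137 CPM, above IPCs and below RGCs.

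Mapt was found in 12.7% of RGCs, 16.1% of IPCs, 27.7% of newborn neurons, 77.0% of upper-layer neurons and 18.0% of erythroid cells. For Stmn2 the shares were 25.3% in RGCs, 25.2% in IPCs, 54.4% in newborn neurons, 94.1% in upper-layer neurons and 47.6% in erythroid cells. RGC and IPC shares of both genes thus lay below the erythroid level, as did the Mapt share of 16.4% in GE progenitors. The other non-neural classes ran from 9.8% (mural) to 20.7% (microglia) for Mapt. For Stmn2 they ran from 21.3% (fibroblast) to 35.6% (endothelial). These progenitor shares lie within those ranges and are read as background. Summed over cells, erythroid cells had 164 and 115 CPM of Mapt and 465 and 423 CPM of Stmn2. The folds of these genes against progenitors thus start from a level within or below the erythroid one. Tuba1a was found in 80.9% of erythroid cells and in over 90% of every neural class, so its share separated little. Flna was found in 39.9% of mural cells, 11.7% of RGCs, 5.8% of newborn neurons and 2.1% of erythroid cells. Median depth before thinning was 3219 UMIs in erythroid cells, and 12 upper-layer and 171 MGE interneuron cells were too shallow to be thinned.

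**Figure D5:**
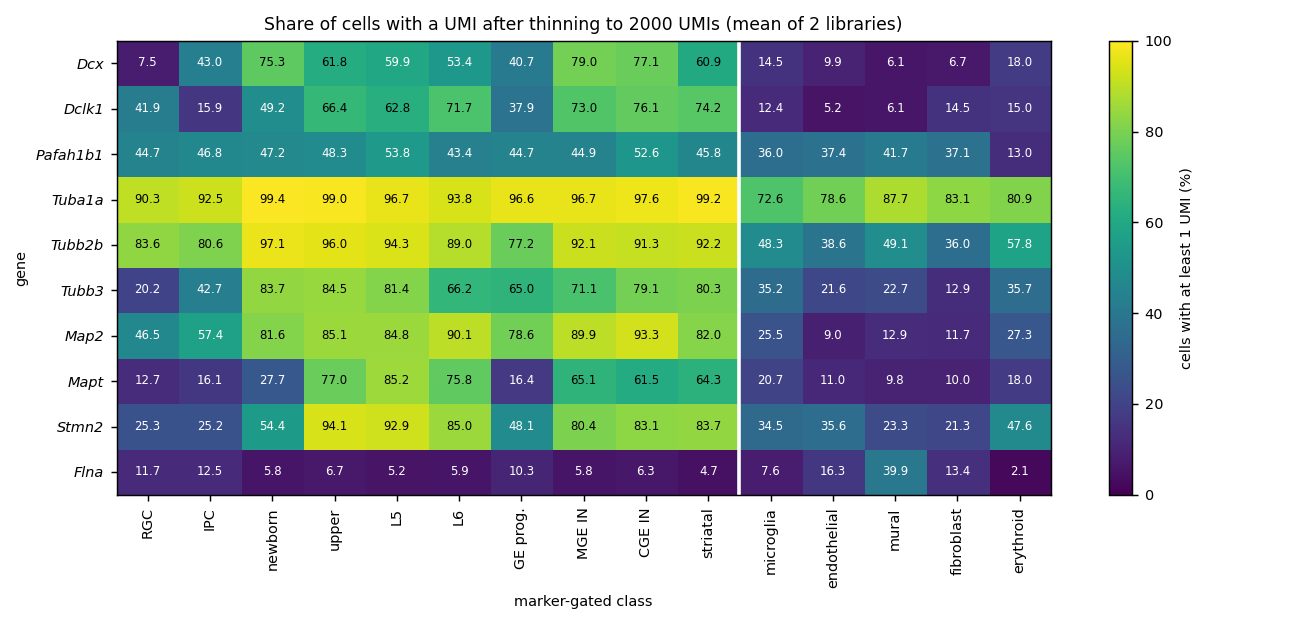
Percent of cells with at least 1 UMI (colour and printed value) of each gene (y axis) in neural classes and, right of the white line, in microglia, endothelial, mural, fibroblast and erythroid cells (x axis), after thinning to 2000 UMIs, mean of both libraries. Dcx goes from 7.5% in RGCs to 75.3% in newborn neurons, and Flna is highest in mural cells at 39.9%.

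Other genes of the microtubule system were described from listed families, whose counts include the 10 genes. All 4 stathmins were higher in newborn neurons than in IPCs, among them Stmn4 (log2 difference 1.35) and Stmn3 (1.26), with a list median of 1.30. Of 19 microtubule-associated proteins tested, 16 were higher at this step and none lower (median 0.62), such as the minus-end protein Camsap3 (2.20) and the axonal Map1b (1.04). Of 15 kinesins, motors that walk along microtubules, 11 were higher and Kif26a was lower (-2.76), with Kif5a at 2.12 and Kif3c at 1.44. The all-gene median was 0.00, and 21.8% of all genes tested were higher at this step and 22.5% lower.

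Genes that fold tubulin differed in direction between steps. Of 14 chaperonin subunits and tubulin cofactors, 8 were lower in newborn neurons than in IPCs and Tbcd was higher (0.38), with Cct5 at -0.57, Cct6a at -0.47 and a median of -0.25. In interneurons against GE progenitors 9 were lower and Tbce was higher (0.73), with Tcp1 at -0.99 and a median of -0.55, where 28.3% of all genes were higher and 27.5% lower. The same list had 7 higher and none lower both in IPCs against RGCs (median 0.24, with 17.6% of all genes higher and 21.8% lower) and in upper-layer against newborn neurons (median 0.18, with 20.2% and 18.9%). Of the 21 LIS1 and dynein genes, 6 were higher and 3 lower in newborn neurons than in IPCs (median 0.17), where 21.8% of all genes were higher and 22.5% lower, so both counts are near the share of all genes. Nde1, a LIS1 partner of dividing progenitors, was the lowest at -3.42, and the dynein adaptor Bicd1 was the highest at 0.90. Among 12 filamin and actin genes, 10 could be tested, and 4 were lower and 1 higher (median -0.37), with Fmn2 at -0.74, Rhoa at -0.63 and Actg1 at 0.24. In IPCs against RGCs the LIS1 and dynein list had 10 higher and 2 lower (median 0.29), beside 17.6% and 21.8% of all genes. In upper-layer against newborn neurons that list had 7 higher and 4 lower (median 0.15), beside 20.2% and 18.9%.

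A list of 36 genes tied to neuronal migration disorders contains several of the 10 genes. At the step from IPC to newborn neuron 21 were higher and 3 lower (median 0.47), beside 21.8% and 22.5% of all genes. Vldlr, a reelin receptor, differed by 2.43 and the secreted ligand Reln by 1.78. Reln was itself a marker of the Cajal-Retzius gate. Between RGCs and IPCs 12 were higher and 9 lower, beside 17.6% and 21.8% of all genes, so the count of lower genes is near the share of all genes. The reelin receptor Lrp8 was at 2.81 and Vldlr at -2.61 in this comparison, so the receptors moved in opposite directions. The reelin adaptor Dab1 was at -2.35 there and at 4.16 in upper-layer against newborn neurons. Between newborn and upper-layer neurons 18 were higher and 8 lower, beside 20.2% and 18.9% of all genes, and the lowest was Reln at -2.79.

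Likeness of pattern was measured as the Pearson correlation of log2 CPM over 36 class-by-library sums, among 14228 genes, as a description with no test, since the sums share libraries and differ in depth. The genes most like Dcx were Nsg2 (r = 0.97), Rab3c (0.96) and Svop (0.96). Those most like Tubb3 were Crmp1 (0.97), Cdk5r1 (0.97) and Scrt1 (0.97), and Crmp1 was also the first for Tuba1a (0.95), followed by Mllt11 (0.95) and Map1b (0.95). Tubb2b was most like Rtn1 (0.97), Sept3 (0.96) and Zcchc18 (0.96). Stmn2 was most like Mapt (0.96), and Mapt most like Ywhag (0.97), Stmn4 (0.96) and Ina (0.96). Map2 was most like Astn1 (0.97), Dclk1 most like Pdzd4 (0.95) and Flna most like Uaca (0.88). Pafah1b1 had the weakest first match, Arhgap44 (0.81). Within the 10 genes r was 0.94 between Tuba1a and Tubb3, 0.83 between Dcx and Dclk1 and below 0 for Flna with each of the others.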

How the data were processed

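The deposited files were gene-by-cell matrices of raw UMI counts, made by the authors with Cell Ranger 7.0.0 on build mm10 (submitters' processing notes) from 10x single-cell 3' v3.1 libraries, without normalization. Cells were required to have 1500 to 60000 UMIs and fewer than 10% mitochondrial ones. The highest doublet scores (scanpy 1.11.5, Scrublet) were removed, 0.8% per 1000 cells. Markers were scored per cell as mean z-scores, a class needing a score of 0.8 and a lead of 0.3, set after marker levels had been seen. Cycling cells had at least 3 cycle-gene UMIs per 10000.

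Summed counts were tested two-sided in edgeR 4.0.16 (quasi-likelihood, TMM, filterByExpr, Benjamini-Hochberg) with both compared classes in a fit, checked on simulated counts. Both classes of a comparison came from the same libraries, and same-library deviations correlated at r = 0.21 to 0.33, so libraries pair the sums and a library block was an alternative. Per-library levels are CPM without TMM. Genes named from a list were the 2 highest and 2 lowest past the threshold, or fewer, leaving out thinly counted ones. The 10 genes, the lists and the markers were chosen with earlier results of these data known. Intronic counting is not given in the sources used here. The value of 1 listed gene is not reported here.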

Additional observations from a re-analysis of the deposited data

Results flagged for a closer look

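A progenitor-to-neuron step of 4 genes differed between the ventral and the excitatory lineage by the interaction test, on the log2 scale, a comparison added after the values had been seen. Tubb3 differed by -1.10, Tuba1a by -0.79 and Map2 by -0.50, so their rise was smaller from GE progenitor to interneuron than from IPC to newborn neuron. The call for Map2 was lost with stricter cell filters (adjusted p = 0.137) and in cells thinned to 2000 UMIs (0.149, edgeR). Mapt differed by 1.69, with a larger rise in the ventral lineage. The IPC and GE progenitor levels of Mapt both lay below the erythroid level in each library. The IPC level of Tubb3 overlapped the erythroid one, so these steps start from values read against background. The sign was the same in both libraries for each of them. In WT replicate 1 the difference was -1.16 for Tubb3, and across both libraries it was -0.81 and -0.74 for Tuba1a, -0.60 and -0.36 for Map2 and 1.40 and 2.03 for Mapt. Of the GE progenitors 408 of 423 were counted as cycling and of the IPCs 356 of 558, and the part of cycling in these differences was not tested. The same rule also counted 250 of 1145 newborn neurons and 332 of 1140 MGE interneurons, so it is a rough mark. Interneurons were not gated as newborn, so lineage and maturity cannot be told apart.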

How the results depend on the processing

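Of 860 values of single genes under alternative settings, 766 kept direction and side of the threshold, 43 missed the threshold, 22 newly passed and 29 changed sign, none of them past the threshold in the main test except Tubb2b in interneurons minus newborn neurons. Counts of genes passing moved by over 1.5 times as follows. With all gated classes in 1 fit they were 4 for upper-layer minus newborn (8 in the main test), 3 for interneuron minus newborn (5), 1 for striatal minus interneuron (4) and 0 for deep minus upper-layer (2). Striatal minus interneuron gave 2 with DESeq2, with doublets kept and with stricter cell filters. Deep minus upper-layer gave 4 with the library as a replicate block and with Leiden clusters, 1 without TMM and with the raised gate, and 0 with DESeq2, stricter filters and the lowered gate, which was added after seeing the data. The share of all genes passing was not compared under these settings. A general change in power thus cannot be told apart from a change particular to the genes followed here. The block changed no calls other than those given beside the results.

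The log2 differences whose sign turned are given with their value under each setting. With Leiden clusters they were Tuba1a (-0.065), Stmn2 (-0.167) and Flna (0.052) in IPC minus RGC, Flna (-0.031) in upper minus newborn, Map2 (0.11) and Flna (0.153) in deep minus upper and Pafah1b1 (-0.0032) in interneuron minus newborn. With stricter cell filters they were Flna (-0.012) in upper minus newborn, Tuba1a (0.065), Tubb2b (0.022) and Tubb3 (0.159) in interneuron minus newborn and Dclk1 (-0.011) and Tubb2b (-0.038) in striatal minus interneuron. With thinned cells they were Flna (0.142) in IPC minus RGC, Map2 (0.116) and Stmn2 (-0.030) in deep minus upper, Dclk1 (-0.038) in striatal minus interneuron and Pafah1b1 (0.082) in the interaction. With doublets kept they were Stmn2 (-0.035) in IPC minus RGC, Stmn2 (-0.022) in deep minus upper, Pafah1b1 (-0.0046) in interneuron minus GE progenitor and Pafah1b1 (-0.039) in interneuron minus newborn. Without a filter on low counts they were Pafah1b1 (-0.0098) and Stmn2 (-0.042) in deep minus upper and Pafah1b1 (-0.073) in interneuron minus newborn. Without TMM they were Pafah1b1 (-0.017) in IPC minus RGC and Map2 (0.017) in deep minus upper. With the raised gate it was Stmn2 (-0.033) in deep minus upper. With the lowered gate it was Pafah1b1 (-0.0043) in interneuron minus newborn. The cause was not tested. A single library gives values with no test, and no gene past the threshold changed sign in either. Of 80 such values, 27 without WT replicate 1 and 30 without WT replicate 6 lay farther from the main fit than the SD between libraries. Single-library values were taken without TMM and the main fit with it. These counts thus also hold that offset and do not measure the spread between libraries. For Map2 in upper minus newborn the libraries gave 0.164 and 0.170 and the main fit 0.235. Among genes past the threshold only Tuba1a and Tubb2b in deep minus upper moved by over 1.5 times, to -0.141 and -0.143 without WT replicate 6. The interaction was not run with DESeq2 or all classes in 1 fit. Without a low-count filter the all-gene median moved to 0.26 in interneuron minus GE progenitor. Only 2 libraries, soft gates and interneurons at medians of 3505 and 3709 UMIs limit the precision.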

Other observations

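Gated classes that entered no comparison also held the 10 genes. Cajal-Retzius-like cells, the early reelin-secreting neurons of the cortical surface, had 474 and 446 CPM of Pafah1b1, above the range of the 10 neural classes described, together with 4426 and 5773 CPM of Tuba1a and 252 and 266 CPM of Dcx. Dorsal lateral GE-type cells had 781 and 795 CPM of Dcx, 1576 and 1568 CPM of Map2 and 363 and 349 CPM of Mapt. Oligodendrocyte precursor-like cells had 811 and 866 CPM of Map2 but 78.0 and 90.7 CPM of Dcx.

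Tubb2a, the close paralogue of Tubb2b, was at a log2 difference of -1.74 in IPCs against RGCs (SE 0.12), 1.06 in newborn neurons against IPCs (SE 0.11), 1.49 in upper-layer against newborn neurons (SE 0.10) and 2.47 in interneurons against GE progenitors (SE 0.13), each past the threshold in edgeR. Its share of beta-tubulin UMIs was 7.8% and 8.0% in RGCs, 2.2% and 2.4% in IPCs and 8.1% and 8.7% in MGE interneurons.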
